A study of Mus musculus with 18 samples.

Results

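The 9 RNAs described here are the noncoding transcripts *Meg3*, *Rian*, *Mirg* and *AF357359* of the imprinted *Dlk1-Dio3* domain, the nuclear RNAs *Malat1*, *Neat1* and *Miat*, the host RNA *Snhg11* and the noncoding gene *Gt(ROSA)26Sor*. They were taken by name from the 15329 genes of the expression table, with earlier results of these data known. *AF357359* and *Gt(ROSA)26Sor* were chosen by their measured values, being among the largest falls after original learning in WT mice, so that comparison is given as a description. The table holds hippocampal RNA sequencing of male C57BL/6J mice aged 8 to 10 weeks, WT or with a knockout (KO) of *Ccny*, the gene of cyclin Y. Mice of each genotype were untrained (Basal), had been trained in the original learning (OL) task of the Morris water maze, in which a hidden platform is found in a pool, or had gone on from it to reversal learning (RL), in which the platform is moved. Each of the 6 groups has 3 libraries, each labelled as hippocampus from a mouse, and p-values measure the spread between these libraries. The labels do not give the kind of knockout allele, and training cannot be told apart from any day or order of handling that went with it. Values are CPM, reads scaled to library size, taken back from the deposited log2(CPM + 1). Differences are log2 fold changes on that scale, and rose or fell means a limma adjusted p below 0.05 over all 15329 genes.

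The RNAs of the *Meg3-Rian* locus come from an imprinted domain in which the maternal chromosome makes long noncoding RNAs, with small nucleolar RNAs and many microRNAs cut from the same transcripts, while the paternal chromosome makes the protein genes *Dlk1*, *Rtl1* and *Dio3*. *Meg3*, *Rian* and *Mirg* follow each other on 1 strand and are abundant in neurons. *Malat1* lies in nuclear speckles, where splicing factors are stored, *Neat1* is the scaffold of paraspeckles, and *Miat* forms nuclear foci of its own in neurons. Mature *Malat1* and the long form of *Neat1* end without a poly(A) tail, so poly(A) selection takes up an unknown share of them.

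Positions are given on GRCm38 with GENCODE M21. *Meg3* lies at chr12:109541001-109571726, *Rian* at chr12:109603940-109661716 and *Mirg* at chr12:109729764-109749460, all on the plus strand. *AF357359* is typed as a small nucleolar RNA by RefSeq at chr12:109650709-109650738, a stretch of 30 bases inside annotated *Rian* exons. The reads were longer than that entry, so how reads were shared between *AF357359* and *Rian* is uncertain, and the annotation behind the counts is not given in the sources used here. *Malat1* (chr19:5795690-5802672) and *Neat1* (chr19:5824708-5845478) are neighbours on the minus strand with 22036 bases between them. *Miat* lies at chr5:112213228-112229395 on the minus strand. *Snhg11*, a small nucleolar RNA host gene that GENCODE types as protein coding and RefSeq as a long noncoding RNA, lies at chr2:158375638-158386145 on the plus strand. *Gt(ROSA)26Sor*, the noncoding gene at the Rosa26 locus that is widely used for transgene insertion, lies at chr6:113067428-113077333 on the minus strand, antisense to and overlapping *Thumpd3*. Whether counting used strand is not stated, so reads of *Gt(ROSA)26Sor* and *Thumpd3* cannot be told apart with certainty.

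The *AF357359* entry is shown because this RNA carried one of the largest differences in the set. The 30 annotated bases are in capitals, with 20 bases of *Rian* on each side, at chr12:109650689-109650758 on the plus strand of GRCm38. The entry gives no strand for *AF357359* itself.
AF357359 in Rian: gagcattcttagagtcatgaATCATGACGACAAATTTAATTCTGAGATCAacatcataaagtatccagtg
The box D letters CTGA of C/D-type small nucleolar RNAs occur 1 time in these 70 bases and the box C core TGATGA 0 times, which describes this window only.

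RefSeq promoter windows, from 250 bases before to 50 bases after a transcription start, were matched for 6 of the 9 genes. The windows of *Meg3* and *Malat1* are shown because they alone among the 6 hold TGACG, the letters that open the cyclic AMP response element TGACGTCA through which neuronal activity is known to act on transcription. Capitals mark every TGACG or its reverse complement CGTCA. In *Meg3* the matches on both strands overlap and form the full element.
*Meg3* promoter, chr12:109540746-109541045, plus strand: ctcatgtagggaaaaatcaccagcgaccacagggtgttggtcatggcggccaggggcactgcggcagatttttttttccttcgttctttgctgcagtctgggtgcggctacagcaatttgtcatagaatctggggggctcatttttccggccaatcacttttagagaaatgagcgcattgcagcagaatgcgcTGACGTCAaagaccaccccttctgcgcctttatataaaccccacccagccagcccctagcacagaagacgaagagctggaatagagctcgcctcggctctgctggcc
*Malat1* promoter, chr19:5802623-5802922, minus strand: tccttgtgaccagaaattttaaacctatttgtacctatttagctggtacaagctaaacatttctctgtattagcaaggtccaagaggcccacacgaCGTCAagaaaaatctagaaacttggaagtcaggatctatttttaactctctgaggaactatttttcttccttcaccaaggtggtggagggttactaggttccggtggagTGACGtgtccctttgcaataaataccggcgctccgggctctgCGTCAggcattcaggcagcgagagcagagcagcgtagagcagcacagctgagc
On either strand, TGACGTCA occurred in 588 of 32851 promoter windows of that length (1.79%) and TGACG in 6837 (20.8%). *Meg3* has 2 windows in the table, and the full element is in 1 of them. A match is a description of letters and not of binding.

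The span of *Mirg* holds 14 microRNA genes with 26 mature microRNAs in RefSeq, which have 25 different seeds (bases 2 to 8, in capitals). MicroRNAs were not measured here. Those shown are the pair that shares a seed, and 3 that show the range of seeds made from this transcript, including mmu-miR-134-5p, known from neuronal dendrites.
mmu-miR-453: aGGUUGCCucauagugagcuugca
mmu-miR-496a-5p: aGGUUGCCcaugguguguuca
mmu-miR-134-5p: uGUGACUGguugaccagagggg
mmu-miR-382-5p: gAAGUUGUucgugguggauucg
mmu-miR-485-3p: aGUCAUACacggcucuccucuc

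The 18 libraries held 29248557 to 37915576 reads on listed genes, so that 1 read was worth 0.0274 to 0.0333 CPM. *Ccny* was at 74.0 to 95.8 CPM in the 9 KO libraries and at 107 to 158 CPM in the 9 WT libraries, without overlap. All 10 hippocampal neuron markers examined were listed. The 6 untrained libraries held 29248557 to 31509208 reads and the 12 trained ones 31830344 to 37915576, so read depth separated untrained from trained libraries, and its part in the results below was not tested.

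Compared per kilobase of exon, *Snhg11*, *Meg3* and *Malat1* were the most abundant of the long RNAs (means over the 18 libraries of 53.6, 47.8 and 45.6 CPM per kb). *Rian* followed at 26.7 CPM per kb and *Miat* at 19.8 CPM per kb. *Gt(ROSA)26Sor* at 4.66, *Neat1* at 3.85 and *Mirg* at 0.746 CPM per kb were lower. The order changed with the group: *Neat1* was above *Gt(ROSA)26Sor* in the 4 trained groups (2.98 against 2.17 CPM per kb in KO OL) and below it in the untrained ones, and *Malat1* was above *Meg3* in untrained WT mice (60.4 against 50.1 CPM per kb). The length used for *Neat1*, 20771 bases, takes in its long form without a poly(A) tail. The level of *Neat1* per kb may thus be understated, and its order beside *Gt(ROSA)26Sor* is uncertain. *AF357359* has no usable length for this scale. In bulk tissue, fewer cells of a type and less RNA per cell cannot be told apart.

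*AF357359* had the most negative log2 difference of the 9 RNAs in KO mice, both after OL and after RL. In WT mice its rank is not read, since it was chosen by its fall there. Its place before *Gt(ROSA)26Sor* depends on the 1 added to each CPM. In KO mice mean CPM went from 40.7 to 10.3 after OL for *AF357359* and from 14.6 to 3.68 for *Gt(ROSA)26Sor*. The level of *AF357359* was 33.9, 35.9 and 39.3 CPM in untrained WT and 47.5, 39.0 and 35.4 CPM in untrained KO hippocampus. After OL it was 15.8, 11.1 and 12.3 CPM in WT and 7.36, 15.5 and 8.05 CPM in KO mice. After RL it was 11.2, 8.82 and 13.0 CPM in WT and 8.65, 18.7 and 10.0 CPM in KO mice. Every untrained library was above every trained library, and the trained groups overlapped each other. In KO mice, which were not used to choose it, *AF357359* fell by 1.94 on the log2 scale after OL (SE 0.257, 95% interval -2.49 to -1.40, n = 3 per group, limma adjusted p = 0.000106), or 3.84-fold. After RL it fell by 1.69 (SE 0.257, limma adjusted p = 0.000309), or 3.23-fold.

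*Rian*, the transcript around *AF357359*, moved less. It was at 563, 575 and 573 CPM in untrained WT and 718, 648 and 626 CPM in untrained KO mice. After OL the values were 513, 528 and 399 CPM in WT and 380.3, 445 and 395 CPM in KO mice. After RL they were 398, 378 and 364 CPM in WT and 401, 469 and 404 CPM in KO mice. Untrained and trained libraries did not overlap, as for *AF357359* and *Gt(ROSA)26Sor*, so that 3 of the 9 RNAs had all 6 untrained libraries above all 12 trained ones, against 5.77% of all genes. *AF357359* and *Gt(ROSA)26Sor* were chosen on part of these libraries, so nothing is read from that count. In KO mice *Rian* fell by 0.71 on the log2 scale after OL (SE 0.102, limma adjusted p = 0.00021) and by 0.65 after RL (adjusted p = 0.00043), and in WT mice by 0.58 after RL (adjusted p = 0.00166). *Rian* has a GC content of 35.8% against a median of 49.8% over all genes. With a correction for GC content the changes were -0.23, -0.24 and -0.18, and none passed in limma (adjusted p = 0.150, 0.128 and 0.327). *AF357359* has no GC value in the annotation used. The ratio of *AF357359* to *Rian* CPM was 6.37% and 6.09% in untrained WT and KO mice, and 2.72%, 2.40%, 2.86% and 2.78% in WT OL, KO OL, WT RL and KO RL mice (geometric means, n = 3 per group, no test).

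*Meg3*, the first RNA of the domain, varied more between mice of a group. In untrained mice it was at 1015, 861 and 840.2 CPM in WT and 998, 1072 and 1488 CPM in KO. After OL it was at 998, 1115 and 555 CPM in WT and 385, 607 and 702 CPM in KO. After RL it was at 637, 517 and 743 CPM in WT and 666, 1602 and 759 CPM in KO. The KO OL libraries were all below the untrained KO libraries, while KO RL replicate 2 held the highest value of the series. *Meg3* fell by 1.09 on the log2 scale in KO mice after OL (SE 0.312, 95% interval -1.75 to -0.43, limma adjusted p = 0.0187), or 2.13-fold. Without KO_Basal replicate 3 the adjusted p was 0.0760 and without KO_OL replicate 1 it was 0.0991. The changes of -0.32 in KO mice after RL (adjusted p = 0.476) and of -0.53 in WT mice after RL (adjusted p = 0.275) did not pass.

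*Mirg*, the last and least abundant RNA of the domain, was covered by 95 to 281 reads a library. Its group means ranged from 4.17 ± 1.19 CPM in KO OL to 7.29 ± 1.27 CPM in untrained KO mice (SD, n = 3). It differed by -0.70 between them (SE 0.253, limma adjusted p = 0.0561), which did not pass, although the values did not overlap. The paternally expressed genes of the domain differed by +0.51 (*Dlk1*), -0.02 (*Rtl1*) and +0.15 (*Dio3*) in that comparison, and 0 of the 3 passed in limma (adjusted p of *Dlk1* 0.434). Of 13 other genes flanking the domain, 2 rose (*Slc25a29* by 0.59 and *Wars* by 0.24) and 1 fell (*Yy1*, by 0.33), which is near the 23.5% of all genes that passed. In KO mice after RL the median of *Dlk1*, *Rtl1* and *Dio3* was -0.41, and 0 of the 3 passed in limma. *Rtl1* was at most 1.02 CPM in any library.

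**Figure D1:**
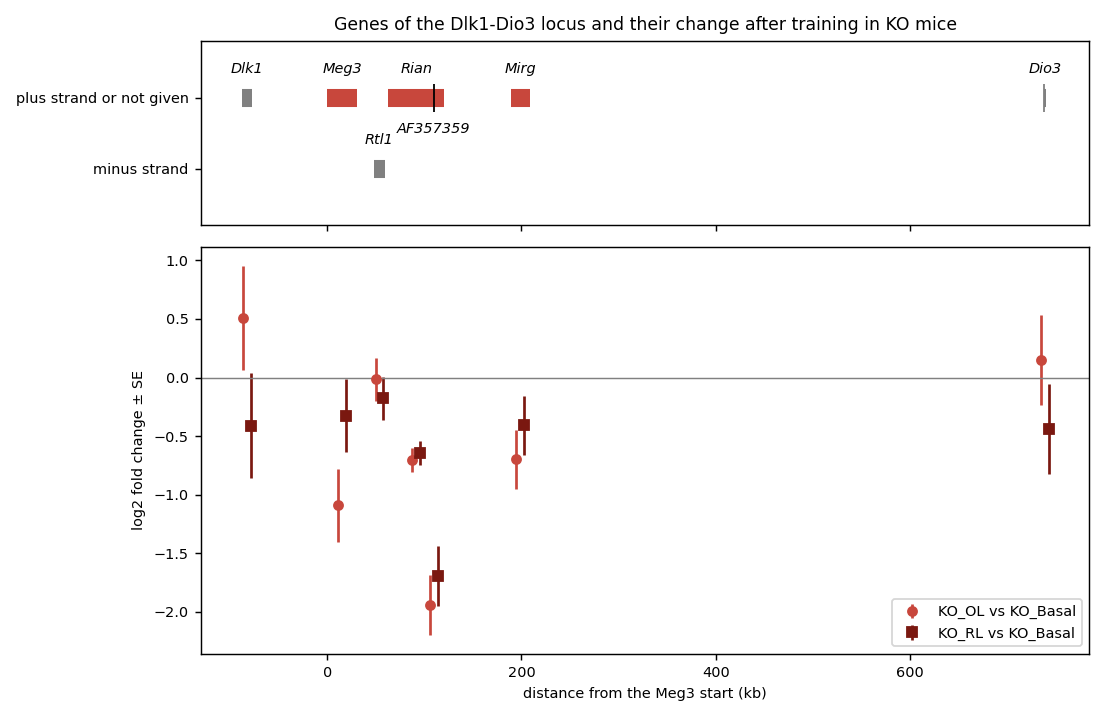
The upper panel maps the genes of the *Meg3-Rian* locus by distance in kb from the start of *Meg3* (horizontal axis), and the lower panel plots at each gene's middle the log2 fold change against untrained KO mice after OL and after RL (vertical axis, points with SE, n = 3 per group). *AF357359*, at 109.7 kb, lies lowest. The protein genes *Dlk1*, *Rtl1* and *Dio3* lie near or above 0 after OL, and their median is -0.41 after RL.

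*Malat1* was at 605, 355 and 305 CPM in untrained WT and 364, 369.8 and 627 CPM in untrained KO mice. After OL it was at 295, 303 and 236 CPM in WT and 139, 205 and 220.4 CPM in KO mice. After RL it was at 229, 196 and 261 CPM in WT and 266, 433 and 324 CPM in KO mice. The KO OL libraries lay below all other libraries except WT RL replicate 2. *Malat1* fell by 1.25 on the log2 scale in KO mice after OL (SE 0.260, limma adjusted p = 0.00299), or 2.37-fold, and by 0.83 in WT mice after RL (adjusted p = 0.0397), or 1.78-fold. The second of these was -0.54 without WT_Basal replicate 1 (adjusted p = 0.205). It was also lost without WT_Basal replicate 2 or WT_RL replicate 1 or 2 (adjusted p = 0.0558, 0.0773 and 0.131), with the replicate block (0.0556), with the GC correction (0.116), with CPM floored at 1 (0.0664) and in a fit of the 2 groups alone (0.0628). In KO mice after RL the difference from untrained mice was -0.39 (adjusted p = 0.291).

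*Snhg11* followed *Meg3* library by library. It was at 533, 510.1 and 503 CPM in untrained WT and 561, 607 and 799.5 CPM in untrained KO mice. After OL it was at 506, 589 and 274 CPM in WT and 204, 323 and 339 CPM in KO mice. After RL it was at 336, 276 and 416 CPM in WT and 318, 760.5 and 365 CPM in KO mice. The highest trained value was again in KO RL replicate 2, and the KO OL libraries did not overlap untrained KO libraries. *Snhg11* fell by 1.20 on the log2 scale in KO mice after OL (SE 0.307, limma adjusted p = 0.0102), or 2.30-fold. Without KO_OL replicate 1 the adjusted p was 0.0595. Its change in KO mice after RL was -0.54 (adjusted p = 0.216), and without KO_RL replicate 2 it was -0.92 (adjusted p = 0.0311). The ratio of *Snhg11* to *Meg3* CPM lay between 47.8% and 57.1% in the 6 groups (geometric means).

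*Miat* had group means from 118 ± 21.9 CPM in KO OL to 241 ± 71.2 CPM in untrained KO mice (SD, n = 3), and these groups did not overlap. It fell by 0.998 on the log2 scale (SE 0.291, 95% interval -1.61 to -0.38, limma adjusted p = 0.0210). This call was lost without KO_Basal replicate 2 or 3 or KO_OL replicate 1 (adjusted p = 0.0603, 0.0911 and 0.0915). *Neat1* ranged from 34.1 CPM in WT RL replicate 2 to 122.6 CPM in WT_Basal replicate 3, and WT RL replicate 3 at 120.3 CPM was close to the highest. Its differences of -0.54 in KO mice after OL (adjusted p = 0.279) and -0.98 in WT mice after RL (SE 0.349, adjusted p = 0.0678) did not pass in limma.

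*Gt(ROSA)26Sor* was at 16.02, 13.6 and 13.8 CPM in untrained WT and 13.6, 15.2 and 15.03 CPM in untrained KO mice. After OL it was at 6.29, 5.84 and 4.22 CPM in WT and 3.59, 3.06 and 4.40 CPM in KO mice. After RL it was at 4.14, 3.73 and 5.21 CPM in WT and 4.19, 5.19 and 5.10 CPM in KO mice. Untrained and trained libraries were far apart, and the 4 trained groups overlapped their neighbours in the order of levels. In KO mice it fell by 1.74 on the log2 scale after OL (SE 0.141, limma adjusted p = 8.35e-06), or 3.35-fold, and by 1.42 after RL (adjusted p = 1.39e-05), or 2.68-fold. With the GC correction the changes were -1.33 and -1.07 and still passed in limma (adjusted p = 7.45e-05 and 0.000299). Since 1 was added to each CPM before the log, these values understate the change of so low a gene. The overlapping gene *Thumpd3* differed by +0.05 in KO mice after OL (adjusted p = 0.749). The ratio of *Gt(ROSA)26Sor* to *Thumpd3* CPM was 36.8% and 41.3% in untrained WT and KO mice and between 9.96% and 16.2% in the trained groups.

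**Figure D2:**
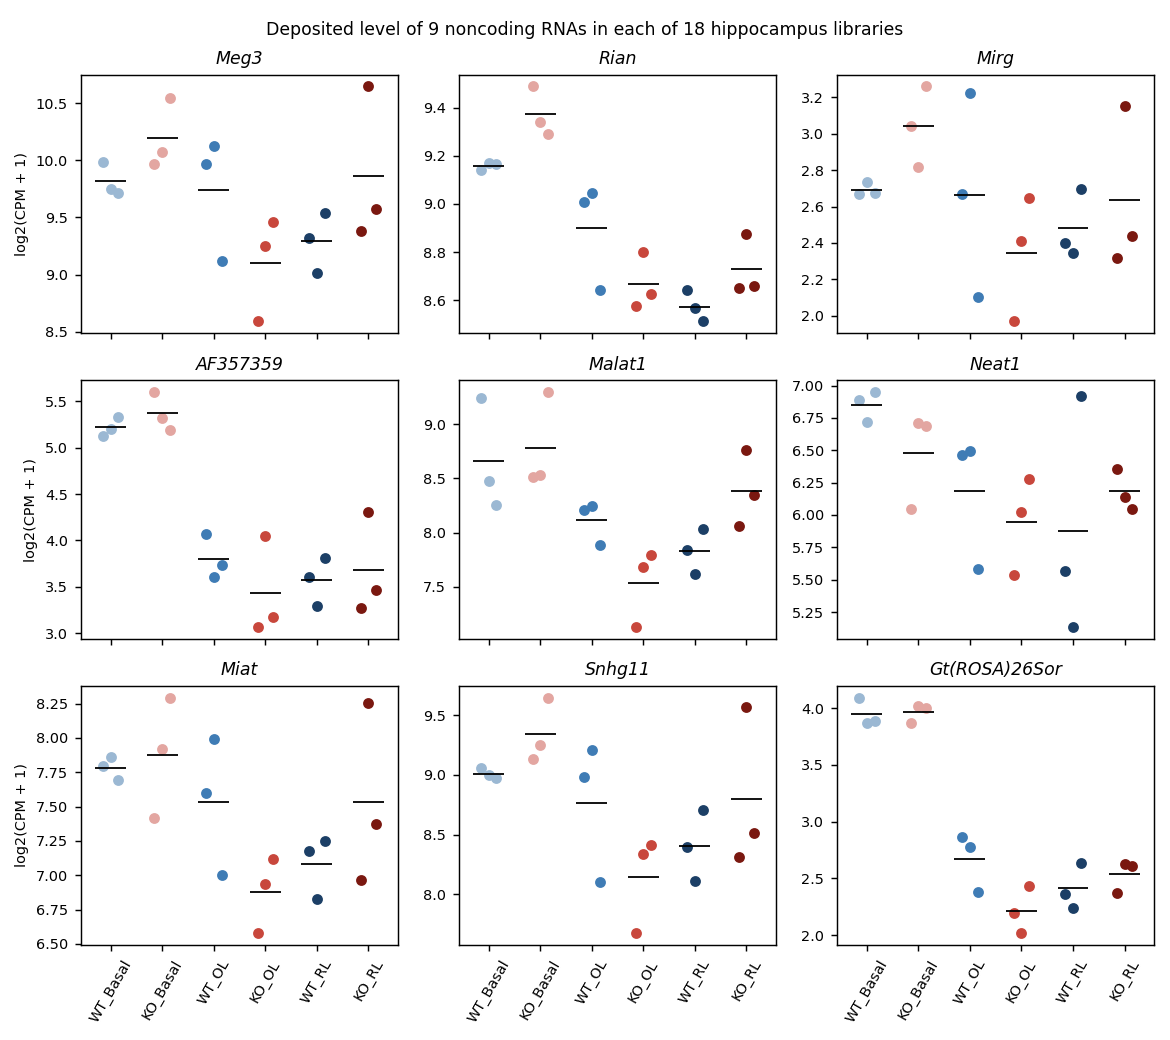
Each panel plots 1 of the 9 RNAs as log2(CPM + 1) (vertical axis) in the 18 libraries by group (horizontal axis), with points for libraries and a bar for the mean of 3. *AF357359*, *Rian* and *Gt(ROSA)26Sor* show 6 untrained libraries above all 12 trained ones, while in the other panels trained and untrained libraries overlap.

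The set was drawn up with earlier results of these data known, so its counts are descriptions and not a test of the set. Over the set, 7 of the 9 RNAs fell in KO mice after OL, against 12.3% of all 15329 genes that fell. Without KO_OL replicate 1 the count was 4, and without KO_Basal replicate 3 it was 5. The exceptions were *Mirg* and *Neat1*. The median change was -1.09 for the 9 RNAs and -0.0073 for all genes. In 8 of 9 the KO OL libraries were all below the untrained KO libraries, against 24.6% of all genes, and *Neat1* was the exception. In KO mice after RL, 3 of 9 fell (*Rian*, *AF357359* and *Gt(ROSA)26Sor*), against 12% of all genes, with a median of -0.41, and the same 3 did not overlap between the groups, against 22.6% of all genes lower without overlap. These comparisons share the untrained KO libraries. In WT mice after RL, 4 of 9 fell, against 7.42% of all genes, with a median of -0.70, and 7 of 9 were lower without overlap, against 16.7%. *AF357359* (-1.65) and *Gt(ROSA)26Sor* (-1.53) are among these 4 and among these 7. They share the untrained WT libraries by which they were chosen, so nothing is read from either count. The tested calls were *Rian* and *Malat1*, and both were lost with the GC correction.

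The comparison of WT OL with untrained WT mice chose 2 members and is given as values only. The log2 differences were -1.42 (*AF357359*), -1.27 (*Gt(ROSA)26Sor*), -0.67 (*Neat1*), -0.54 (*Malat1*), -0.26 (*Rian*), -0.25 (*Miat*), -0.25 (*Snhg11*), -0.08 (*Meg3*) and -0.03 (*Mirg*). The adjusted p was below 0.05 in 2 of the 9, the same 2 that this comparison chose, beside 5.62% of all genes that were lower at that threshold. Without overlap 5 were lower, beside 15.2% of all genes, and the 2 chosen are among these 5. Nothing is read from either count. Without WT_OL replicate 3 the values of *Meg3* (+0.23), *Mirg* (+0.25), *Snhg11* (+0.08) and *Miat* (+0.01) were above 0 and that of *Rian* was -0.13. With the GC correction the value for *Rian* turned to +0.11. WT OL replicate 3 was the lowest of its group for *Meg3*, *Rian*, *Mirg*, *Malat1*, *Neat1*, *Miat*, *Snhg11* and *Gt(ROSA)26Sor*. In the study's mapping statistics, the share of reads mapped in WT OL replicates 1 and 2 was close to that of the untrained libraries. In WT OL replicate 3 that share lay within the range of the other trained libraries. The fits without WT OL replicate 3 thus keep only replicates 1 and 2 of that group. The part of this split in the values was not tested.

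**Figure D3:**
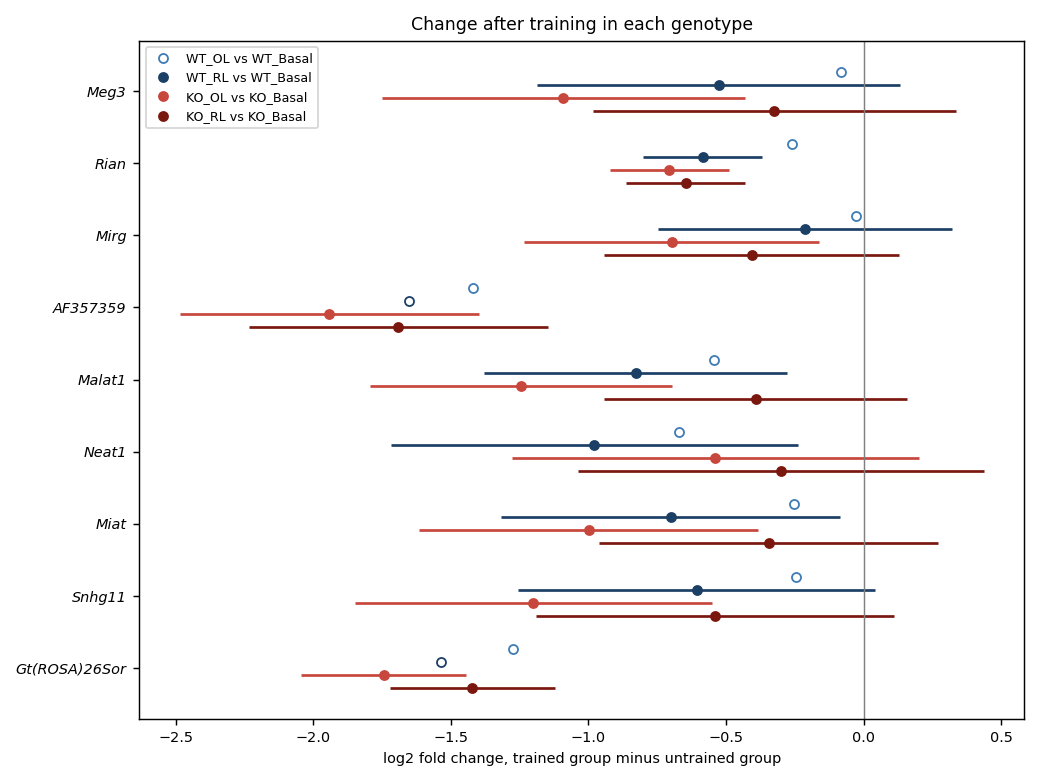
Log2 fold changes of the 9 RNAs (horizontal axis) in trained against untrained mice of the same genotype. Bars are 95% limma intervals, and open circles without bars stand for comparisons used in choosing that RNA or sharing its libraries. The intervals in KO mice after OL lie below 0 for all but *Neat1*, whose interval crosses 0.

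From OL to RL the differences were above 0 in KO and below 0 in WT mice, and none passed in limma. In KO mice all 9 differences were above 0, with a median of 0.32, although *Rian* (-0.01) and *AF357359* (-0.06) were below 0 without KO_RL replicate 2. None of the 9 had an adjusted p below 0.05, against 0.0196% of all genes, and 5 had an unadjusted p below 0.05, against 4.81% of all genes. *Malat1* had the largest difference, +0.85 (adjusted p = 0.654, no overlap), and *Meg3* differed by +0.77 (adjusted p = 0.947), which was 0.38 without KO_RL replicate 2. In WT mice all 9 differences were below 0, with a median of -0.31, although *Mirg* was at +0.09 without WT_OL replicate 2 and *Neat1* at +0.06 without WT_RL replicate 2. Of the 9, 0 had an adjusted p below 0.05, against 0.261% of all genes (1 of 9 at an unadjusted p below 0.05, against 16.4%). *Rian* differed by -0.33 (adjusted p = 0.177, no overlap), and without WT_OL replicate 3 by -0.45 (adjusted p = 0.0102). The difference between genotypes in this step passed for 0 of 9 in limma, against 0% of all genes (6 at an unadjusted p below 0.05, against 7.98% of all genes), with *Meg3* at +1.21 (adjusted p = 0.581).

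Between genotypes at the same stage, 0 of the 9 passed in limma. In untrained mice, KO exceeded WT by 0.37 for *Meg3*, 0.35 for *Mirg*, 0.33 for *Snhg11* and 0.22 for *Rian*, and *Neat1* was at -0.37 (limma adjusted p = 0.994 each). None was called, against 0.0196% of all genes, and 1 had an unadjusted p below 0.05, against 4% of all genes. *Rian*, *Mirg* and *Snhg11* were higher in KO without overlap, against 7.05% of all genes, and *Neat1* was lower without overlap, against 7.67%. After OL all 9 were below WT in KO mice and none was called, against 0.0652% of all genes (4 at an unadjusted p below 0.05, against 18%), with *Meg3* at -0.64 (adjusted p = 0.289), *Miat* at -0.65 (0.256) and *Snhg11* at -0.62 (0.291). Leaving out WT_OL replicate 3 brought 5 of the 9 past the threshold, among them *Meg3* (-0.95, adjusted p = 0.0495), *Snhg11* (-0.95, 0.0409) and *Rian* (-0.36, 0.0171). The share of all genes that passed in that fit is not given here, so nothing is read from this count. After RL all 9 were above 0 in KO against WT mice, although *Mirg* (-0.10) and *AF357359* (-0.20) were below 0 without KO_RL replicate 2 and *Neat1* (-0.06) without WT_RL replicate 2, and none was called, against 0% of all genes (1 at an unadjusted p below 0.05, against 4.93%). The difference between genotypes in the change from untrained to OL was -1.01 for *Meg3* (SE 0.441, adjusted p = 0.391), -0.95 for *Snhg11* (0.394) and -0.45 for *Rian* (0.388), and none of the 9 passed in limma, against 0% of all genes (4 at an unadjusted p below 0.05, against 12.4%). For the change from untrained to RL, 0 of 9 passed (0% of all genes) and 0 had an unadjusted p below 0.05, against 4.99% of all genes. The falls after training were therefore not shown to differ between genotypes.

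The 9 RNAs fell into patterns that differed within groups. Over the 18 libraries, *Meg3* and *Snhg11* had a Pearson correlation of 0.982, which was 0.9897 after group means were removed. *Meg3* was close to *Miat* as well (0.951), and *Leng8* was the next most like *Meg3* among all genes (0.954). *Meg3* and its neighbour *Rian* were less alike (0.693, and 0.604 with group means removed). *AF357359* and *Gt(ROSA)26Sor* had a correlation of 0.921 that was 0.049 with group means removed. All these points share library, depth and training group, and the values are descriptions.

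Among all listed genes, *AF357359* was most like *Ube2d3* (0.989, and 0.924 with group means removed) and *Rab11a* (0.981), and *Rian* was most like *Fam92a* (0.970) and *Mbip* (0.955). *Malat1* was most like *Ttc14* (0.941) and *Kcnq1ot1* (0.933), the latter another imprinted noncoding RNA. *Miat* was most like *Mir124a-1hg* (0.962), the host RNA of a neuronal microRNA, and *Snhg11* (0.962). *Mirg* was most like *Snhg11* (0.936) and *Meg3* (0.922), *Neat1* was most like *Rnft1* (0.917), and *Gt(ROSA)26Sor* was most like *Fam76b* (0.969).

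**Figure D4:**
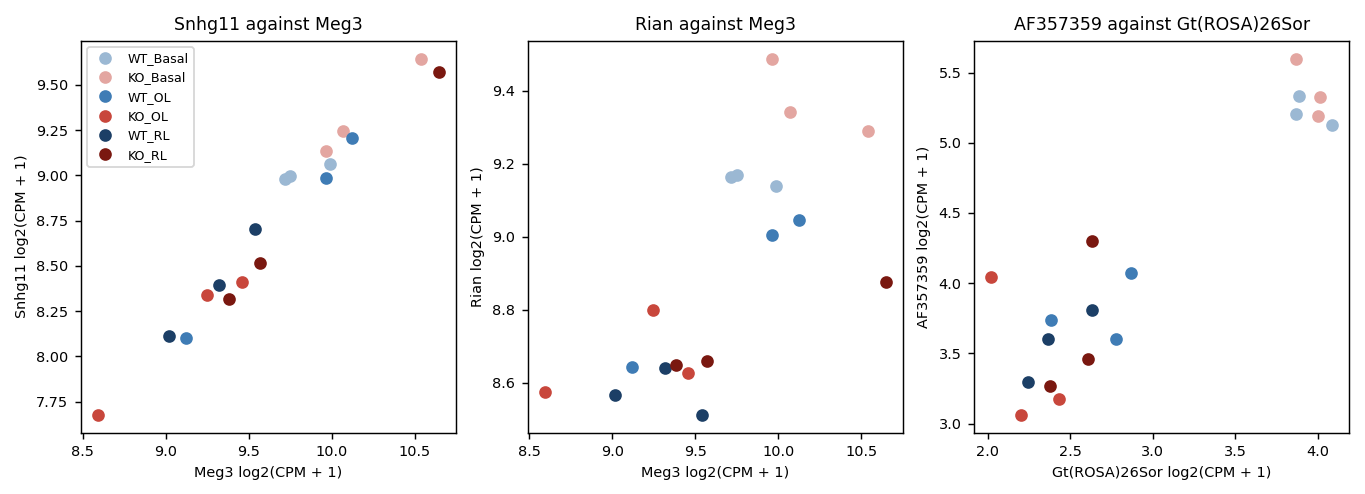
Pairs of RNAs over the 18 libraries, both axes in log2(CPM + 1), coloured by group. *Meg3* and *Snhg11* follow 1 line across and within groups (0.982), *Meg3* and *Rian* scatter more (0.693), and *Gt(ROSA)26Sor* and *AF357359* form an untrained and a trained cloud.

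The gene lists were also drawn up with earlier results of these data known, so their counts are descriptions. Other noncoding RNAs also fell in KO mice after OL, 20 of 35 against 12.3% of all genes, while 1 rose, and their median was -0.41. *Snhg14*, the host of the imprinted small nucleolar RNA clusters of the Prader-Willi domain, fell by 1.06 (limma adjusted p = 0.0011), *Kcnq1ot1* by 0.92 (0.0044) and *Ftx* by 0.86 (0.0244). After RL, 10 of 35 fell in KO mice, against 12% of all genes, and 12 of 35 in WT mice, against 7.42%. The counts that follow are for KO mice after OL, where 12.3% of all genes fell and 23.5% passed in either direction. Among 19 paraspeckle protein genes, which bind *Neat1*, 10 fell and 2 rose in KO mice after OL (median -0.26), with *Hnrnpa1* at -0.82 and *Smarca4* at +0.47. Of 25 speckle and splicing genes, 13 fell and 3 rose (median -0.31), with *Pnisr* at -0.80 and *Srsf5* at -0.67. Of 6 splicing factors linked to *Miat*, *Srsf1* (-0.58) and *Qk* (-0.40) fell and *Sf1* (+0.38) rose. Of 9 genes of polycomb repressive complex 2, known to bind *Meg3*, 1 fell (*Mtf2*, by 0.86), near the share of all genes that fell. Of 13 genes of nuclear RNA export and decay, 5 fell and 0 rose, among them *Pabpn1* (-0.86), which binds poly(A) tails in the nucleus. In 9 genes of microRNA processing, 2 rose (*Ago2* by 0.48 and *Drosha* by 0.34) and 0 fell, near the share of all genes that passed. Of 10 activity-induced genes, 4 rose, with *Egr4* at +1.29 and *Fosb* at +1.25. Their median was +0.52, beside +1.18 in WT mice after OL. In untrained mice their summed level was 309 to 559 CPM in KO and 293 to 302 CPM in WT. Between untrained KO and WT mice 0 of the 10 passed in limma.

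Listed neighbours of the RNAs outside the *Dlk1-Dio3* domain are given for KO mice after OL, where 23.5% of all genes passed. Near *Malat1* and *Neat1*, 0 of 8 passed in limma. Near *Miat*, 1 of 6 rose (*Tfip11*, by 0.31), near *Snhg11*, 2 of 4 rose (*Slc32a1* by 0.44 and *Ppp1r16b* by 0.42), and near *Gt(ROSA)26Sor*, 1 of 4 rose (*Srgap3*, by 0.41).

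**Figure D5:**
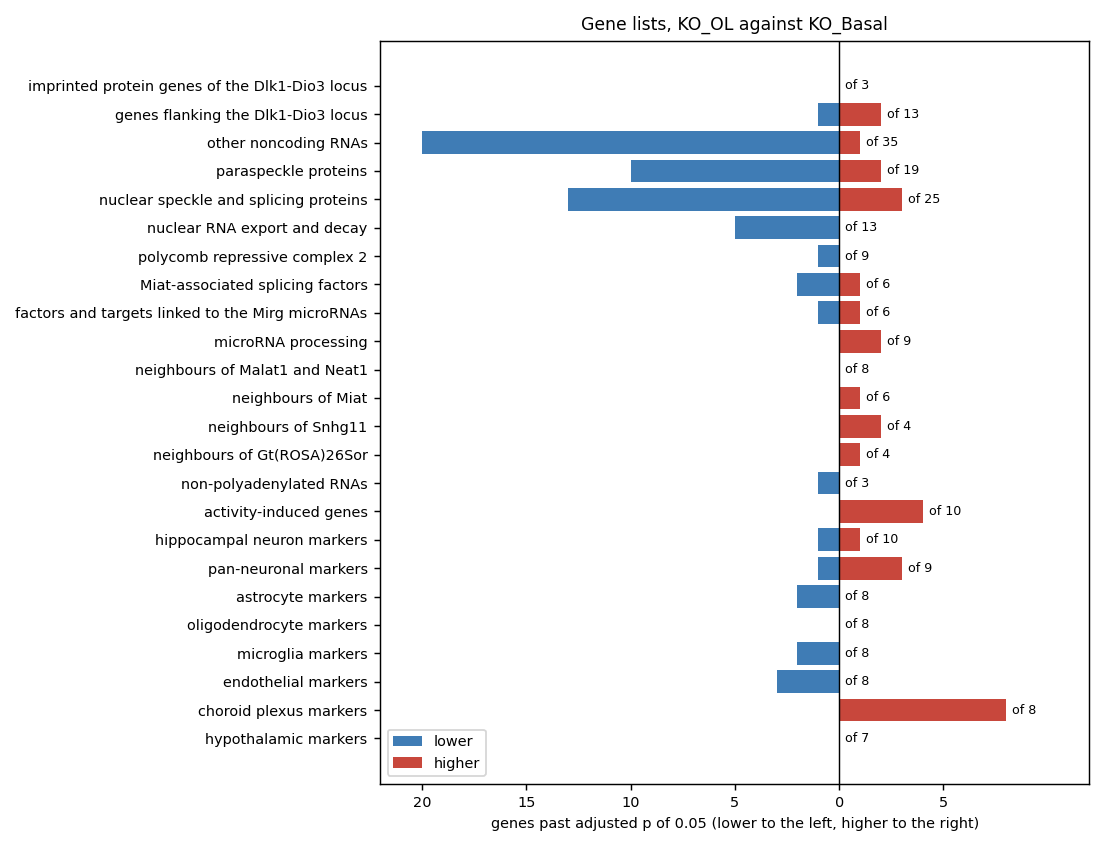
Numbers of genes that rose (right of 0) or fell (left of 0) in KO mice after OL, at an adjusted p below 0.05, in each gene list (vertical axis). Noncoding, paraspeckle and speckle lists lie mostly to the left, with 20, 10 and 13 genes that fell.

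Markers of cell types were counted in KO mice after OL, where 12.3% of all genes fell and 23.5% passed in either direction. Of 8 markers each, 3 endothelial, 2 astrocyte, 2 microglia and 0 oligodendrocyte markers fell, and 0 rose. Of 10 hippocampal neuron markers 1 rose and 1 fell, and of 9 pan-neuronal markers 3 rose and 1 fell. In WT mice after OL, 1 endothelial and 2 astrocyte markers rose and 0 fell, while 2 microglia markers rose and 1 fell. All 8 choroid plexus markers rose in KO mice after OL, and their summed level was 45.0 to 667 CPM in untrained KO, 2408 to 4654 CPM in KO OL and 1331 to 5030 CPM in KO RL libraries, with no marker at 0 in all libraries. In WT mice the sum was already 857 to 4351 CPM in untrained and 41.7 to 8435 CPM in RL libraries. Hypothalamic markers reached 106 CPM in KO_Basal replicate 1 and at most 11.6 CPM elsewhere. A list drawn up for non-polyadenylated RNA had 3 tested genes, among them *Lars2*, whose reads were not traced to such RNA. Of the 3, 1 fell in KO mice after OL (median -0.68). After RL, 3 of 3 fell in KO mice (median -0.90), against 12% of all genes, and 2 of 3 in WT mice (median -0.71), against 7.42%. *Lars2* fell by 0.68 in KO mice after OL (limma adjusted p = 0.0076). Over the 18 libraries its Pearson correlation was 0.893 with *Rian*, 0.829 with *Gt(ROSA)26Sor* and 0.764 with *AF357359*. With the other members it was 0.423 (*Meg3*) to 0.528 (*Snhg11*). Correlations with the log2 of total reads on listed genes were -0.788 for *Rian*, -0.806 for *Gt(ROSA)26Sor* and -0.794 for *AF357359*. For the other members they ran from -0.462 (*Mirg*) to -0.688 (*Malat1*). The part of these differences in the falls of the 9 RNAs was not tested.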

How the data were processed

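Hippocampal RNA of 18 mice was sequenced. Per the labels, poly(A) RNA was selected with oligo(dT) beads and a stranded kit was used, while the study's methods name a TruSeq kit without that word, and whether counting used strand is not stated. The authors mapped the reads to mm10 with STAR 2.5.1, counted them per gene and scaled the counts with edgeR 3.12.1 (TMM) in R 3.3.0, per the submitters' processing notes. The deposited values are log2 CPM of 15329 genes. The study's methods describe CPM floored at 1, but the values fit CPM with 1 added: reversing this gave whole reads for 100% of values (tolerance 0.01 reads). Depth was therefore known: 29248557 to 37915576 reads per library.

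Groups were taken from the labels. 1 mean per group was fitted to the log2 values of all 18 libraries with limma 3.58.1 (empirical Bayes with trend, 12 residual degrees of freedom, R 4.3.3), with Benjamini-Hochberg adjustment over 15329 genes and a threshold of 0.05. Lists were described by counts and medians without set tests. The members and lists were chosen with earlier results of these data known. Named genes were all 9 members, the 2 genes most like each of them by Pearson correlation, up to 3 genes of each list with the largest changes past the threshold, neighbouring or overlapping genes, and *Ccny*. No separate p-value is printed for any member in WT OL against untrained WT, or for the 2 members it chose in comparisons that share those libraries. Counts of the 9 members past a threshold still include such members wherever they were fitted. In those comparisons the counts are therefore not independent of the choice. The same replicate numbers did not pair libraries: in 0 of 15 pairs of groups were all correlations of same-numbered deviations over 0.1. Sequences and positions came from RefSeq (GRCm38.p6) and GENCODE M21. Alternatives were library weights, GC correction, other scalings, pseudocounts and filters, voom on the recovered reads, other empirical Bayes settings, fits of the compared groups alone, a replicate block and leaving out each library. The fits were tested on simulated data.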

Additional observations from a re-analysis of the deposited data

How the results depend on the processing

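Of 108 values (9 RNAs in each comparison and genotype difference), 20 changed sign in at least 1 alternative, and 0 of these had passed the test. In the comparisons of trained with untrained mice of the same genotype, 5 values changed sign, all 5 in WT OL against untrained WT. The counts of the 9 RNAs with an adjusted p below 0.05 moved by more than 1.5 times only as follows. With limma's library weights, whose estimate did not converge, the counts were 5 for WT OL against untrained WT, 3 for WT RL against WT OL, 5 for KO RL against untrained KO, 8 for KO OL against WT OL, and 6 and 3 for the difference between genotypes in OL against untrained and in RL against OL. With library weights estimated gene by gene, added after seeing the data, the counts were 1 for WT RL against WT OL (597) and 5 for KO RL against untrained KO (6990). They were 6 for KO OL against WT OL (4190) and 4 for the difference between genotypes in OL against untrained (2056). With GC correction, alone or with the replicate block, the counts were 1 each for WT OL and WT RL against untrained WT and for KO RL against untrained KO. This is in part because *AF357359* has no GC value and is absent. With GC correction alone, 349, 1178 and 2709 of the genes with a GC value passed in these comparisons. Leaving out single libraries gave 4 to 7 for KO OL against untrained KO (lowest without KO_OL replicate 1), and 0 to 1 for WT RL against WT OL, 0 to 5 for KO OL against WT OL and 0 to 1 for the difference between genotypes in OL against untrained, the highest each without WT_OL replicate 3. The number of all genes that passed in these leave-out fits is not given, so nothing is read from those counts. The replicate block took the count for WT RL against untrained WT from 4 to 3, where *Malat1* had an adjusted p of 0.0556, and changed no other count by over 1.5 times. Replicate numbers did not pair the libraries. Depth limits *Mirg* most, at 95 to 281 reads a library.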
